A study of Mus musculus with 6 samples.

Results

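Transforming growth factor beta (TGF-beta) signalling was described through 10 genes that encode its ligands (Tgfb1, Tgfb2 and Tgfb3), its type I and type II receptors (Tgfbr1 and Tgfbr2), the SMAD proteins that carry the signal (Smad2, Smad3 and Smad4), the inhibitory SMAD (Smad7) and a corepressor of SMADs (Ski). They were chosen by name, and every non-control probe whose transcript accession belongs to one of these symbols was taken. All 10 of the 23462 genes named on the array had a probe, and 20 of its 56605 probes belonged to them. Of these 20 probes, 18 passed the filter on dim probes, with at least 1 for each gene.

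The ligands are secreted in a latent complex and must be released from it before they bind the type II receptor, which then phosphorylates the type I receptor. The activated type I receptor phosphorylates SMAD2 and SMAD3, which join SMAD4 and enter the nucleus to change transcription. SMAD7 blocks the receptor, and Ski holds SMAD complexes in a repressive state. In the brain, TGF-beta1 is known as a factor that microglia need in order to keep their mature identity.

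Gene expression was measured on 6 one-colour Agilent arrays of microglia, the resident macrophages of the brain, with 3 arrays in each of 2 groups. The PGC-1αf/f mice were the controls and carried an allele of PGC-1α with loxP sites and an eGFP tag, but no Cre recombinase. The mPGC-1α mice carried the same allele together with the Cx3cr1 cre/ERT2 knock-in, a Cre placed in the Cx3cr1 locus that acts in the presence of tamoxifen and switches on PGC-1α, a transcriptional coactivator of mitochondrial genes. The controls were littermates, and all mice were of C57BL/6 background, labelled male and aged 10 weeks, with no injury named in the labels. Per the study's methods, tamoxifen was given on consecutive days and followed by an interval before the experiments. The methods do not say whether the controls of the arrays received it. The Cre sits in a locus that border macrophages and some blood monocytes also use, and the knock-in, which the controls lack, lies in the Cx3cr1 gene itself. Cells were selected with magnetic beads through P2RY12, a purine receptor of microglia. Nothing in the labels says that the replicates came from separate mice, so p-values measure the spread between these samples.

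Values are log2 intensities minus the 75th percentile of the array, so that 0 is the intensity below which 75% of the non-control spots lay. A difference is always mPGC-1α minus PGC-1αf/f. Levels of different probes are not comparable with each other, since each probe binds with its own strength. The test was limma across all 25257 probes that gave a p-value, two-sided, with Benjamini-Hochberg adjustment and a threshold of 0.05. Each gene is represented by its brightest tested probe with a value on all 6 arrays, and the other tested probes of the 10 genes follow.

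Between 27025 and 30272 of the 59305 non-control spots of an array were well above background and none was saturated. PGC-1αf/f replicate 3 stood apart, with a correlation to the other arrays that averaged 0.928, against 0.962 to 0.972 for the rest. It also had the lowest mean level of blood leukocyte markers, -0.27, where the other 5 arrays had 2.16 to 2.91. The library labelled mPGC-1α replicate 3 went against its label of male, because 0 of 7 Y-linked probes were well above background there, against 5 or 6 on every other array. Xist, which is transcribed from the inactive X chromosome of females, was well above background on that array (-1.63), and also on PGC-1αf/f replicate 2 (-2.78) and mPGC-1α replicate 2 (-2.40), on which 5 Y-linked probes were well above background. Leaving out either of these replicate 2 arrays turned the sign of no core gene with values on all arrays, with differences of -0.39 and -0.50 for Tgfb1 and 0.95 and 0.93 for Tgfb2. The differences of the core genes with values on all arrays, and of the genes named from the lists by p and overlap, are given with and without each of the replicate 3 arrays. All arrays lay on 1 slide, with PGC-1αf/f in row 1 and mPGC-1α in row 2, so that row and group cannot be told apart. Both groups were present in slide columns 1 and 2, which gave a difference within each of these columns.

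The promoters of Tgfb1 and Tgfb2 are shown first because these ligands, alone among the 9 genes with values on all arrays, had an unadjusted p under 0.05, with opposite signs. The sequences are the 250 bases before the RefSeq transcription start in the build GRCm38.p6, written 5′ to 3′ on the strand of the gene. Tgfb1 lies at chr7:25686752-25687001 on the plus strand, and Tgfb2 at chr1:186705990-186706239 on the minus strand. Capitals mark the GC box GGGCGG on either strand in Tgfb1, and the SMAD element CAGACA and the TATA box TATAAA in Tgfb2.
Tgfb1: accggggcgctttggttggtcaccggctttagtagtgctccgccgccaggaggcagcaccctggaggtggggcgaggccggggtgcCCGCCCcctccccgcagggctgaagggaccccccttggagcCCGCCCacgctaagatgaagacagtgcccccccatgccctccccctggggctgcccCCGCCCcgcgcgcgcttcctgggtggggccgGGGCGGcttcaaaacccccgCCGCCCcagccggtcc
Tgfb2: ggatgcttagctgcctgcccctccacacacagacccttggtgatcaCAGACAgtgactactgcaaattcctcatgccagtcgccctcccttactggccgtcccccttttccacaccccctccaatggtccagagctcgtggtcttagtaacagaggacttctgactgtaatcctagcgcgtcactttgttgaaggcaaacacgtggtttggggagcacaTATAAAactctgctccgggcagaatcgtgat

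The Tgfb1 promoter was 75.2% G and C, against a median of 52.4% over the 32851 mouse promoters of the same length. It held 5 GC boxes, a motif that was present in 32.7% of all promoters. It held no TATAAA. The Tgfb2 promoter was 53.6% G and C and held no GC box. Its TATAAA began 31 bases before the start, and 12.4% of all promoters held that motif. Its CAGACA began 204 bases before the start, and 17.1% of all promoters held it. In all, 6 of the 10 genes had a promoter in the table, namely Tgfb1, Tgfb2, Tgfbr1, Tgfbr2, Smad3 and Ski. None of them held the SMAD box GTCTAGAC, found in 0.167% of promoters, the estrogen-related receptor half-site AAGGTCA, found in 4.08%, or the AP-1 element TGANTCA, found in 6.75%. Both strands were searched, and a match describes letters and not a bound site.

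Ppargc1a, the gene that encodes PGC-1α, was examined first as the targeted gene. Its level was 0.19, -0.44 and -1.21 in PGC-1αf/f replicates 1, 2 and 3, and 0.57, 0.28 and 0.08 in mPGC-1α replicates 1, 2 and 3. The groups overlapped, since PGC-1αf/f replicate 1 lay above mPGC-1α replicate 3. The difference was 0.80 (SE 0.35) with a limma adjusted p of 0.306, and it was 0.44 without PGC-1αf/f replicate 3 and 0.92 without mPGC-1α replicate 3. As a mean over its probes with values on all arrays, Ppargc1a differed by 0.69 with a limma adjusted p of 0.388. Whether the probes lie in the part of the transcript made by the transgene is not known from the files. Cx3cr1, the fractalkine receptor whose locus carries the Cre, was 4.53, 4.28 and 4.24 in PGC-1αf/f and 3.85, 3.95 and 3.73 in mPGC-1α microglia. Those groups did not overlap, and the difference was -0.51 (SE 0.14) with a limma adjusted p of 0.193.

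Of the 10 genes, 9 had a probe with values on all 6 arrays, and 0 of these 9 passed the adjusted threshold in limma, which 0.0792% of all tested probes and 0.065% of all genes taken by 1 probe each did. At an unadjusted p under 0.05, Tgfb1 was lower and Tgfb2 was higher in mPGC-1α microglia. Thus 2 of 9 were under that value, against 16.7% of all tested probes and 13.9% of all genes taken by 1 probe each. The median difference of the 9 was -0.10, beside 0.03 over all 12302 genes with such a probe. The signs were mixed, with 3 genes above 0 and 6 below.

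**Figure D1:**
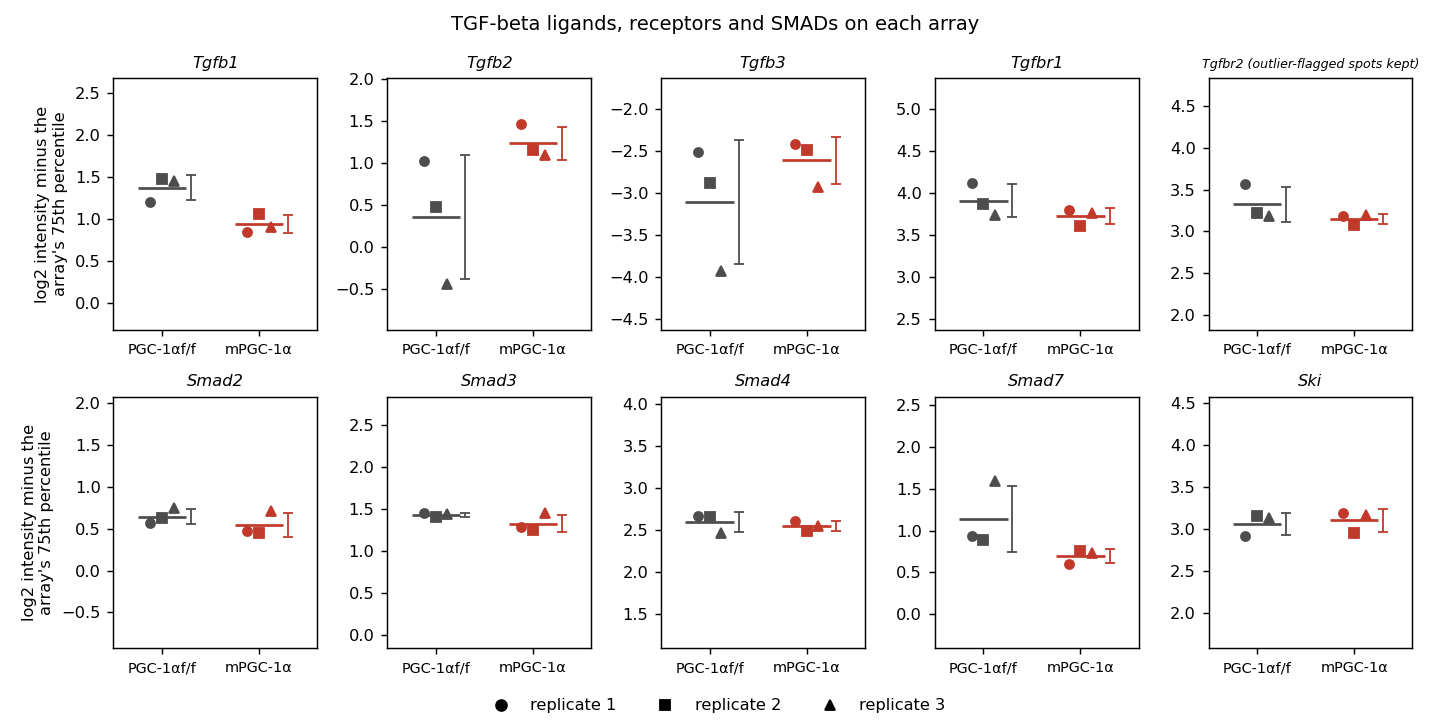
Level of each gene on each array, as log2 intensity minus the array's 75th percentile, with points for the 3 arrays of each group, a bar for the mean and an error bar for the SD. Every panel spans the same number of log2 units. Tgfb1, Tgfb2 and Smad7 show groups that do not overlap, while the PGC-1αf/f arrays of Tgfb2 and Tgfb3 are spread widely, with replicate 3 lowest.

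Tgfb1, the ligand that microglia are known to make and to depend on, was at 1.20, 1.47 and 1.45 in PGC-1αf/f replicates 1, 2 and 3. In mPGC-1α replicates 1, 2 and 3 it was at 0.85, 1.05 and 0.90. Every mPGC-1α array lay below every PGC-1αf/f array. The group means were 1.37 ± 0.15 and 0.93 ± 0.11 (SD, n = 3), a difference of -0.44 (SE 0.14, 95% interval -0.77 to -0.10), or 73.9% of the control intensity. Its unadjusted p in limma was 0.0172 and its adjusted p 0.228, so Tgfb1 did not pass the threshold. The difference was -0.35 within slide column 1 and -0.41 within column 2. It was -0.40 without PGC-1αf/f replicate 3, -0.42 without mPGC-1α replicate 3, and -0.38 without both.

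The second probe of Tgfb1 was dimmer, at -1.94, -2.03 and -1.78 in PGC-1αf/f and -1.97, -2.19 and -2.69 in mPGC-1α microglia. Here the groups overlapped, and the separation came mainly from mPGC-1α replicate 3. The difference had the same sign, at -0.37 (SE 0.21), with a limma adjusted p of 0.397.

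Tgfb2, a ligand better known from neurons, astrocytes and developing tissues, showed the opposite order. Its level was 1.02, 0.48 and -0.44 in PGC-1αf/f replicates 1, 2 and 3, and 1.46, 1.16 and 1.10 in mPGC-1α replicates 1, 2 and 3. All mPGC-1α arrays lay above all PGC-1αf/f arrays, although mPGC-1α replicate 3 exceeded PGC-1αf/f replicate 1 by little. The means were 0.35 ± 0.74 and 1.24 ± 0.20 (SD, n = 3), a difference of 0.89 (SE 0.35, 95% interval 0.05 to 1.72), or 1.85-fold. The unadjusted p in limma was 0.0409 and the adjusted p 0.283. The spread of the controls came largely from PGC-1αf/f replicate 3, and the difference was 0.49 without that array. Without mPGC-1α replicate 3 it was 0.96, and without both it was 0.56. Within slide columns 1 and 2 it was 0.44 and 0.68.

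A second probe for Tgfb2 gave the same order at a lower signal. It read -0.08, -0.80 and -1.47 in PGC-1αf/f and 0.03, -0.01 and -0.03 in mPGC-1α microglia. The groups did not overlap, and the 3 mPGC-1α arrays were nearly equal. The difference was 0.78 (SE 0.32) with a limma adjusted p of 0.295.

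Tgfb3, the third isoform, was well above background on all 6 arrays. Its level was -2.51, -2.87 and -3.93 in PGC-1αf/f and -2.42, -2.49 and -2.92 in mPGC-1α microglia. The groups overlapped, and PGC-1αf/f replicate 3 was again lowest. The difference was 0.49 (SE 0.36, 95% interval -0.37 to 1.35) with a limma adjusted p of 0.505, and it was 0.79 without PGC-1αf/f replicate 1, 0.08 without PGC-1αf/f replicate 3 and 0.65 without mPGC-1α replicate 3.

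The balance of the ligands was then taken within each array as the log2 value of Tgfb2 minus that of Tgfb1, which compares arrays and not the amounts of both ligands. It was -0.18, -0.99 and -1.89 in PGC-1αf/f and 0.61, 0.10 and 0.19 in mPGC-1α microglia. The means differed by 1.32. No test is given, because the levels of both ligands, seen beforehand, already fixed that the groups could not overlap in this measure.

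Markers of other cell types were set beside the ligands, because Tgfb2 is made by several of them. The mean level of 15 of 18 blood leukocyte markers was 2.16, 2.61 and -0.27 in PGC-1αf/f and 2.44, 2.72 and 2.91 in mPGC-1α microglia, and Cd79a, a B cell marker, was well above background on 0 arrays. For 6 of 11 endothelial and mural cell markers it was -1.40, -1.64 and -3.18 against -1.96, -1.21 and -0.98, with Tek, Rgs5 and Kcnj8 well above background on 0 arrays. PGC-1αf/f replicate 3, which was lowest for Tgfb2 and Tgfb3, was thus lowest for both of these lists too. That array was likewise lowest for the astrocyte, neuronal and border macrophage lists that follow, by little for astrocytes. For 8 of 10 astrocyte markers the mean was 0.38, 0.28 and -0.04 against 0.90, 0.07 and -0.03. For 8 of 10 neuronal markers it was 0.21, -0.07 and -0.52 against 0.32, -0.23 and 0.11, and Slc17a7, a marker of excitatory neurons, was well above background on 0 arrays. The astrocyte and neuronal means of the groups overlapped. For 9 of 10 border macrophage markers the mean was -0.13, -0.10 and -0.33 against -0.22, 0.21 and 0.69, with the highest value in mPGC-1α replicate 3. For 11 of 12 oligodendrocyte markers it was -0.15, -0.06 and 0.44 against -0.48, -0.65 and -0.71, which was lower on every mPGC-1α array. The microglial list itself ran from 3.74 to 3.95 in PGC-1αf/f and from 3.57 to 3.71 in mPGC-1α microglia over the 6 of 12 genes with values on all arrays. With the leukocyte mean as a covariate in limma, the difference of Tgfb1 was -0.41, that of Tgfb2 was 0.43 with an adjusted p of 0.735, and that of Tgfb3 was 0.01. The covariate set PGC-1αf/f replicate 3 (-0.27) apart from the other arrays (2.16 to 2.91). It therefore acted much like leaving that array out, which gave 0.49 for Tgfb2. Here and below, it cannot separate leukocyte content from other deviations of that array. The part of the other cell types in the results was not tested beyond this covariate. In bulk samples such as these, fewer cells of a type and less RNA per cell cannot be told apart.

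**Figure D2:**
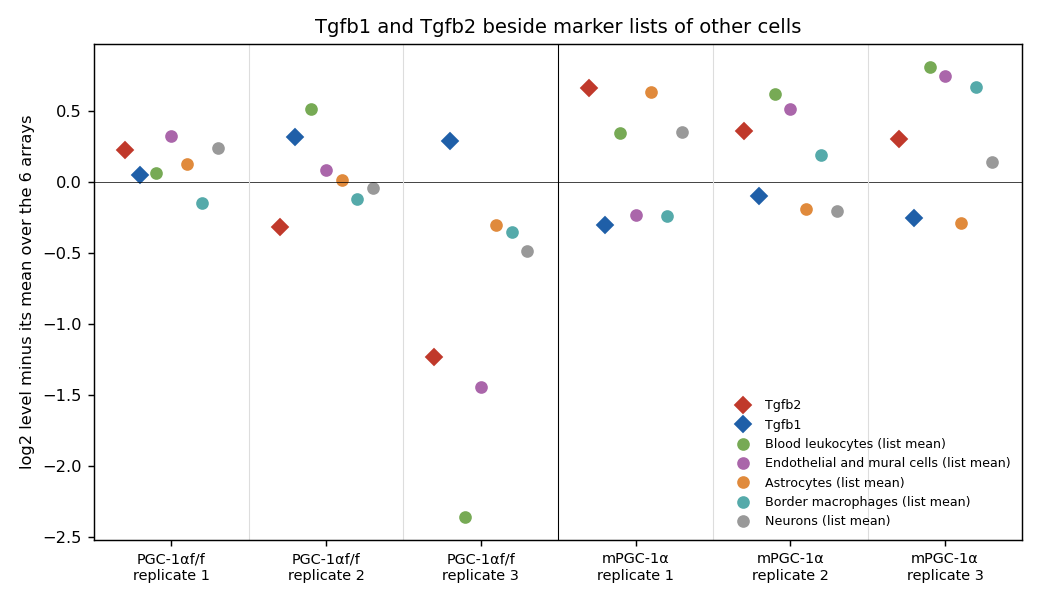
Tgfb1 and Tgfb2 (diamonds) and the mean of each marker list (circles) on each of the 6 arrays, as a log2 level minus its own mean over the arrays. PGC-1αf/f replicate 3 is lowest in Tgfb2 and in the leukocyte, endothelial, border macrophage, astrocyte and neuronal lists. Tgfb1 is above its mean on all 3 PGC-1αf/f arrays and below it on all 3 mPGC-1α arrays.

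Next, the receptors were examined. Tgfbr1, the type I receptor kinase that phosphorylates SMAD2 and SMAD3, was at 4.12, 3.87 and 3.73 in PGC-1αf/f and 3.79, 3.61 and 3.76 in mPGC-1α microglia at its brightest probe. The groups overlapped through PGC-1αf/f replicate 3. The difference was -0.19 (SE 0.15, 95% interval -0.54 to 0.17) with a limma adjusted p of 0.544. Its dimmer probe read -0.90, -0.97 and -0.70 in PGC-1αf/f and -1.28, -1.33 and -1.73 in mPGC-1α microglia. At that probe the groups did not overlap, and the difference was -0.59 (SE 0.17) with an unadjusted p of 0.0107 and an adjusted p of 0.200 in limma. The 2 probes therefore shared a sign but not a size, and their mean gave -0.39 with an unadjusted p of 0.0166 and an adjusted p of 0.292. Quantile normalization gave -0.30 at the brighter probe, with an unadjusted p of 0.0401 and an adjusted p of 0.266. The difference at that probe was -0.08 without PGC-1αf/f replicate 1, -0.27 without PGC-1αf/f replicate 3 and -0.21 without mPGC-1α replicate 3.

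Tgfbr2, the type II receptor that binds the ligand first, had 1 probe, and its spot was flagged as an outlier on PGC-1αf/f replicate 2 and mPGC-1α replicates 2 and 3. The unflagged values were 3.57 and 3.19 in PGC-1αf/f replicates 1 and 3 and 3.18 in mPGC-1α replicate 1. With a single mPGC-1α array left, no test is given on these. With the flagged spots kept, the level was 3.57, 3.22 and 3.19 in PGC-1αf/f and 3.18, 3.08 and 3.19 in mPGC-1α microglia. The groups then met at PGC-1αf/f replicate 3, and the difference was -0.17 (SE 0.15, 95% interval -0.53 to 0.18) with an adjusted p of 0.574. That interval allowed a lower level as well as a slightly higher one.

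The receptor-regulated SMADs differed little between the groups. Smad2 was at 0.56, 0.62 and 0.74 in PGC-1αf/f and 0.47, 0.45 and 0.71 in mPGC-1α microglia. The groups overlapped, and the difference was -0.10 (SE 0.14, 95% interval -0.43 to 0.23) with a limma adjusted p of 0.729. Its second probe gave -0.21 (SE 0.22). At the first, the difference was -0.05 without PGC-1αf/f replicate 3 and -0.18 without mPGC-1α replicate 3. Smad3, which binds DNA directly and mediates much of the transcriptional response, was at 1.45, 1.40 and 1.44 in PGC-1αf/f and 1.29, 1.24 and 1.45 in mPGC-1α microglia. The controls lay close together, with an SD of 0.02, and mPGC-1α replicate 3 was level with them. The difference was -0.10 (SE 0.12, 95% interval -0.40 to 0.19) with an adjusted p of 0.694, and its second probe gave -0.14 (SE 0.15). Without PGC-1αf/f replicate 3 it was -0.10, and without mPGC-1α replicate 3 it was -0.16.

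Smad4, the partner shared by the TGF-beta and BMP branches, had 5 probes. The brightest read 2.67, 2.66 and 2.47 in PGC-1αf/f and 2.61, 2.49 and 2.55 in mPGC-1α microglia, with a difference of -0.05 (SE 0.13, 95% interval -0.36 to 0.25) and a limma adjusted p of 0.861. It was -0.12 with PGC-1αf/f replicate 3 left out and -0.05 with mPGC-1α replicate 3 left out. The next brightest, flagged on PGC-1αf/f replicate 1, gave -0.05 (SE 0.16) over the other 5 arrays, and a dim one gave 0.13 (SE 0.24). The values overlapped at both of these, and neither was past the threshold. The remaining 2 probes did not pass the filter. One of them was well above background on 2 PGC-1αf/f arrays and on 0 mPGC-1α arrays. Its PGC-1αf/f mean was 1.23-fold higher than the lowest measurable signal allowed for mPGC-1α. The fold is not a firm bound, because that mean includes PGC-1αf/f replicate 1, which was not well above background. The other was well above background on 2 arrays of each group.

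Smad7, which is induced by TGF-beta and shuts the receptor off again, was at 0.93, 0.89 and 1.59 in PGC-1αf/f and 0.60, 0.76 and 0.73 in mPGC-1α microglia. Every mPGC-1α array lay below every control, and PGC-1αf/f replicate 3 was far above the other controls. The means were 1.14 ± 0.39 and 0.70 ± 0.09 (SD, n = 3), and the difference was -0.44 (SE 0.21, 95% interval -0.94 to 0.06). Its unadjusted p in limma was 0.0747 and its adjusted p 0.338. It became -0.21 without PGC-1αf/f replicate 3, -0.46 without mPGC-1α replicate 3, and -0.16 with the leukocyte covariate. Within slide columns 1 and 2 it was -0.33 and -0.13. The second, dimmer probe overlapped between the groups and gave -0.22 (SE 0.22) with an adjusted p of 0.629.

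Ski, the corepressor that TGF-beta signalling removes by degradation, was at 2.92, 3.15 and 3.13 in PGC-1αf/f and 3.19, 2.95 and 3.17 in mPGC-1α microglia. The arrays of the groups were interleaved. The difference was 0.04 (SE 0.14, 95% interval -0.30 to 0.37) with a limma adjusted p of 0.908, and its sign turned under quantile normalization (-0.07), a median shift (-0.09), normexp correction (-0.05) and array weights (-0.07). Leaving out PGC-1αf/f replicate 3 gave 0.07, and leaving out mPGC-1α replicate 3 gave 0.0049.

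Groups did not overlap for 3 of the 9 genes, with Tgfb2 higher and Tgfb1 and Smad7 lower in mPGC-1α microglia. Over all genes taken by 1 probe each, the groups did not overlap for 22.9%, with the mPGC-1α arrays above for 12.2% and below for 10.8%. The 6 other genes overlapped. Where a gene had several tested probes, they shared a sign except at Smad4.

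**Figure D3:**
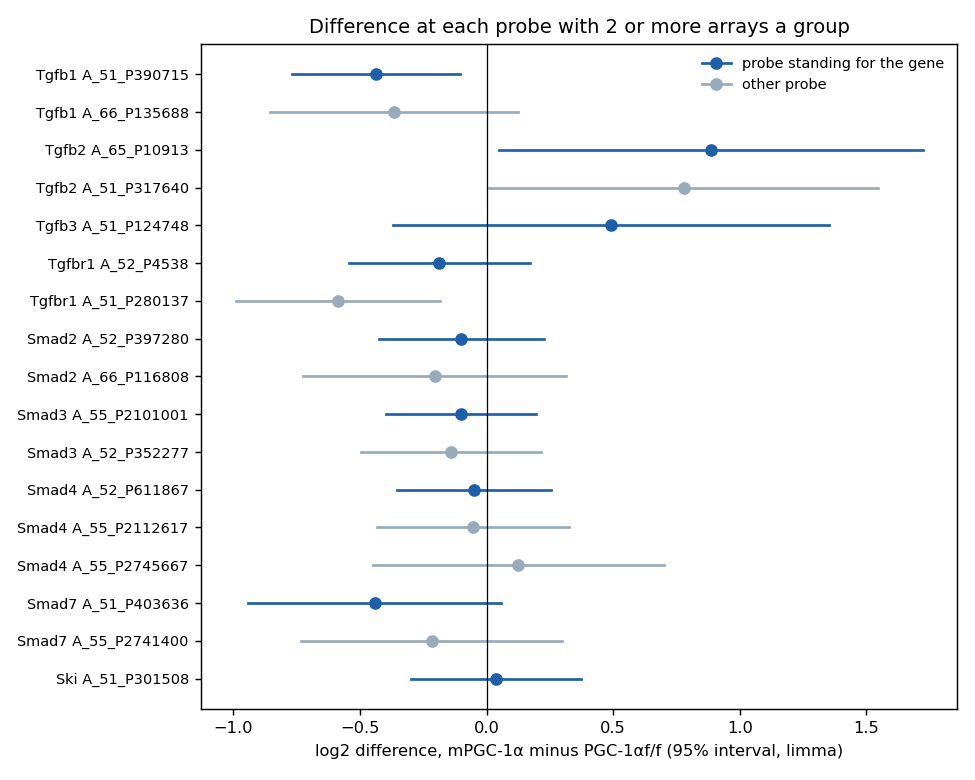
Log2 difference, mPGC-1α minus PGC-1αf/f, with its 95% interval from limma at each tested probe with values on at least 2 arrays of each group, which leaves out Tgfbr2, in dark blue for the probe that represents its gene and in grey for the others. The intervals of both Tgfb2 probes lie above 0, those of 1 Tgfb1 probe and 1 Tgfbr1 probe lie below 0, and the rest include 0.

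The genes around this core were then described in 7 lists, of which 89 genes passed the filter, 18 did not, and 73 had a probe with values on all 6 arrays. Of the 73, 1 passed the adjusted threshold, 13 were higher and 6 lower by unadjusted p under 0.05 in limma, where 8.16% of all genes were higher and 5.71% lower. These unadjusted counts moved with the processing. They were 11 higher and 0 lower without normalization, 8 and 4 with the leukocyte covariate, and 16 and 11 with array weights. Without PGC-1αf/f replicate 2 they were 13 and 3. The genes named are those past the adjusted threshold in a list or, failing that, up to 3 with the smallest unadjusted p whose groups did not overlap.

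SMAD target genes, which are transcribed when SMAD complexes enter the nucleus, were above 0 at 14 of the 14 measured members of a list of 18, with 6 of them higher and 0 lower by unadjusted p under 0.05 and a median of 0.59. The list, set with earlier results known, left out Smad7 (-0.44) and Skil, although TGF-beta induces both, and the count depends on that choice. Of all tested probes, 50.3% lay below 0. All 14 stayed above 0 under the 4 other scalings, without PGC-1αf/f replicate 3 (median 0.51) and without mPGC-1α replicate 3 (median 0.64), and 13 did so without both and with the leukocyte covariate (median 0.41). With only probes measured well above background on every one of the 6 arrays, 13 of 13 were above 0 (median 0.57). The gene that this removed was Fn1, which encodes fibronectin and whose probe was well above background on 2 PGC-1αf/f and 3 mPGC-1α arrays. The count rested on the filter, because without it 16 of 17 were above 0 and 1 was lower by unadjusted p under 0.05. With PGC-1αf/f replicate 1 left out, 15 of 16 were above 0 and 1 was likewise lower. Itgae, the alpha E integrin subunit, picked after its values were seen, did not pass the filter and was well above background on 2 PGC-1αf/f and 0 mPGC-1α arrays. Its PGC-1αf/f mean was 1.79-fold higher than the lowest measurable signal allowed for mPGC-1α. That mean includes PGC-1αf/f replicate 1, which was not well above background, so the fold is not a firm bound. Cdkn1a rose; it encodes p21, an inhibitor of the cell cycle, and is also a target of p53. It was at -1.61, -1.63 and -1.06 in PGC-1αf/f and 1.42, 1.70 and 1.59 in mPGC-1α microglia, far apart and without overlap. The difference was 3.00 (SE 0.19), an 8.02-fold change, and its adjusted p in limma was 0.00721. The threshold was lost with the replicate number as a block (adjusted p 0.0803), and without PGC-1αf/f replicate 2 (2.91, adjusted p 0.0608), mPGC-1α replicate 2 (2.94, adjusted p 0.0793) or mPGC-1α replicate 3 (3.00, adjusted p 0.0805). Leaving out PGC-1αf/f replicate 3 gave 3.19. A dimmer probe of Cdkn1a was well above background on 3 mPGC-1α arrays and 0 control arrays, and was at least 8.39-fold higher in mPGC-1α microglia, given without a test because it passed the filter through the group in which it was high. In the same list 5 further genes had an unadjusted p under 0.05 and none passed the adjusted threshold, so the values of the 4 given here, picked after they were seen, are only descriptive. Spp1, which encodes osteopontin, differed by 2.07 (adjusted p 0.0900), Bhlhe40 by 1.13, Id3 by 0.96 and Ccn2 by 1.24. All 4 were lowest on PGC-1αf/f replicate 3, as the leukocyte markers were, at -1.43 for Spp1, -2.54 for Bhlhe40, 0.16 for Id3 and -3.13 for Ccn2. Without that array the differences were 1.85, 0.81, 0.63 and 0.62 in the same order, and with the leukocyte covariate 1.73, 0.71, 0.57 and 0.40. Without mPGC-1α replicate 3 they were 1.87, 1.08, 0.91 and 0.99.

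Of the 10 measured members among 18 microglial genes known to depend on TGF-beta, 3 were above 0 and 7 below, 0 had an unadjusted p under 0.05, and the median was -0.04. The sign of that median turned without PGC-1αf/f replicate 1 (0.06) and without mPGC-1α replicate 2 (0.0074). The number lower by unadjusted p under 0.05 was 1 under quantile normalization, a median shift and normexp, with the leukocyte covariate, and without replicate 3 of either group or of both, and it was 2 with array weights. The others of the 18 had a flagged spot on at least 1 array. With flagged spots kept, all 18 were measured, 4 were above 0 and 14 below, 0 had an unadjusted p under 0.05, and the median was -0.12 beside 0.02 over all genes. P2ry12, the receptor used for selection, was then at 4.13, 3.79 and 4.35 in PGC-1αf/f and 3.70, 3.68 and 3.89 in mPGC-1α microglia, with a difference of -0.33 (SE 0.18). Tmem119, a membrane protein specific to microglia, differed by 0.03 (SE 0.15). Both genes and C1qa, which encodes a complement subunit and differed by 0.0037, were picked after their values were seen. The lowest differences among the 18 were those of Fcrls, -0.43 (SE 0.19), and Olfml3, -0.39 (SE 0.205). The groups did not overlap at either, and the spot of Fcrls was unflagged on only 3 arrays.

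Genes that store and release latent TGF-beta were divided. Of 12 measured members of a list of 20, 3 were higher and 1 lower by unadjusted p under 0.05, and the median was 0.25. That median was not stable. It was -0.04 over 16 genes with flagged spots kept, -0.05 with the leukocyte covariate, 0.0012 over the 10 genes well above background on all arrays, and 0.04 without PGC-1αf/f replicate 3. The number of genes higher was not stable either. It was 2 over those 10 genes, 1 without PGC-1αf/f replicate 3 or without any single mPGC-1α array, and 0 with the leukocyte covariate. Itgb3, the beta3 integrin subunit that pairs with the alpha V subunit and can release latent TGF-beta, was at 1.72, 1.47 and 1.49 in PGC-1αf/f and 1.04, 0.88 and 0.72 in mPGC-1α microglia. All mPGC-1α arrays lay below all controls, with a difference of -0.68 (SE 0.15) and a limma adjusted p of 0.135. It was -0.72 without PGC-1αf/f replicate 3 and -0.60 without mPGC-1α replicate 3. Thbs1, which encodes thrombospondin 1, an activator of the latent complex, had a difference of 0.75 (SE 0.28) and an adjusted p of 0.268 at its dimmer probe, but -0.20 at its brighter probe once a flagged spot was kept. At the dimmer probe it was 0.76 without PGC-1αf/f replicate 3 and 0.44 without mPGC-1α replicate 3, the array with the highest value.

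Among co-receptors and other receptors, 7 of 11 were measured, with 1 of them higher and 2 lower by unadjusted p under 0.05 and a median of -0.22. Tgfbr3, the betaglycan that presents ligand and that TGF-beta2 in particular needs for binding, was at 0.48, -0.04 and -0.49 in PGC-1αf/f and 0.60, 1.10 and 0.81 in mPGC-1α microglia. The groups did not overlap, and the difference was 0.85 (SE 0.27) with a limma adjusted p of 0.221. It was 0.62 without PGC-1αf/f replicate 3 and 0.86 without mPGC-1α replicate 3, and 0.56 with the leukocyte covariate. Eng, which encodes the co-receptor endoglin, was at 0.19, 0.72 and 0.81 in PGC-1αf/f and -0.19, 0.14 and 0.03 in mPGC-1α microglia, with a difference of -0.58 (SE 0.20) and an adjusted p of 0.247. Leaving out the same arrays gave -0.46 and -0.60. Acvr2a, an activin type II receptor, differed by -0.73 (SE 0.18) with an adjusted p of 0.167, and by -0.65 and -0.68 without those arrays.

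Of the activin, BMP and GDF ligands, 5 of 11 were measured, 2 were higher and 0 lower by unadjusted p under 0.05, and the median was 0.94. That median was 0.53 with the leukocyte covariate, 0.68 without PGC-1αf/f replicate 3 and 1.00 without mPGC-1α replicate 3. Inhba, which encodes the beta A subunit of activin, was well above background on 1 PGC-1αf/f and 3 mPGC-1α arrays. With only probes measured well above background on every one of the 6 arrays, which left it out, 3 of 4 genes were above 0 and the median was 0.81. Bmp4 was at -0.36, -0.52 and -1.34 in PGC-1αf/f and 0.36, 0.20 and 0.61 in mPGC-1α microglia, without overlap, and differed by 1.13 (SE 0.27, limma adjusted p 0.160). Bmp7 was at -0.46, -1.01 and -1.52 in PGC-1αf/f and 0.09, -0.09 and -0.17 in mPGC-1α microglia, again without overlap, and differed by 0.94 (SE 0.27, adjusted p 0.196). For both, PGC-1αf/f replicate 3 was lowest, and the differences without it were 0.83 and 0.68. Without mPGC-1α replicate 3 they were 1.02 and 1.00, without both 0.72 and 0.74, and with the leukocyte covariate 0.74 and 0.65.

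Of the other SMADs, 3 of 4 were measured. Smad5, which serves the BMP branch, differed by -0.37 (SE 0.14, limma adjusted p 0.266), and Smad6, the inhibitor of that branch, by 0.37 (SE 0.14, adjusted p 0.271). A dimmer probe of Smad5 gave -0.57 (SE 0.28, adjusted p 0.346). Without PGC-1αf/f replicate 3, Smad5 differed by -0.33 and Smad6 by 0.41, and without mPGC-1α replicate 3 they differed by -0.31 and 0.47. Of the 25 regulators of receptors and SMADs, 22 were measured, with 0 of them higher and 2 lower by unadjusted p under 0.05 and a median of -0.04. Tgif2, a homeodomain corepressor of SMADs, differed by -0.50 (SE 0.14, adjusted p 0.194) at its brightest probe, -0.52 (SE 0.16) at another and 0.27 (SE 0.18) at the dimmest. The mean over these probes differed by -0.25 with an unadjusted p of 0.0845. At the brightest probe the difference was -0.49 without PGC-1αf/f replicate 3 and -0.50 without mPGC-1α replicate 3. Zfyve9, the anchor that brings SMADs to the receptor, differed by -0.54 (SE 0.20, adjusted p 0.270). It was -0.35 without PGC-1αf/f replicate 3, with an unadjusted p of 0.0777, -0.51 without mPGC-1α replicate 3 and -0.30 with the leukocyte covariate. Skil, the closest relative of Ski and a gene that TGF-beta induces, disagreed between its probes and was picked for that after its values were seen. Its brightest probe differed by -0.06, and 2 dimmer ones by 0.88 and 1.30, with limma adjusted p values of 0.836, 0.152 and 0.111.

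**Figure D4:**
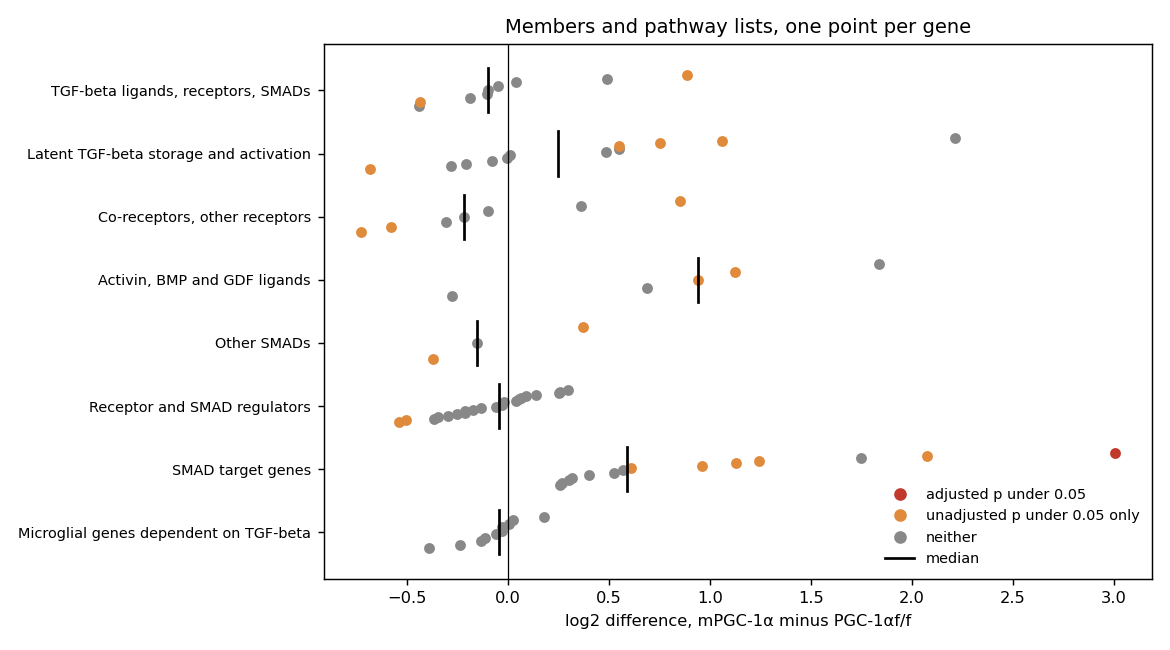
Log2 difference, mPGC-1α minus PGC-1αf/f, with 1 point for each measured gene of the 9 members and of the 7 lists, and a vertical bar at each list's median. Cdkn1a, at 3.00, is the point past the adjusted threshold, the 14 measured SMAD target genes lie to the right of 0, and 3 of the 10 measured microglial genes do.

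Finally, the genes whose levels ran most like those of Tgfb1 and Tgfbr1 were named by the root mean square difference of centred log2 values over the 6 arrays, among 11565 genes well above background on all of them. For Tgfb1 they were Rbms2 (0.0554), Cybc1 (0.0595) and Lrrk1 (0.0611), where the median of all genes was 0.308. For Tgfbr1 they were Pcnp (0.0319), Rora (0.0326) and Cltc (0.0366), where the median was 0.257. With 6 arrays, many genes can match this closely. For Tgfbr2 the measure could not be computed, since its spot was flagged on 3 arrays.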

How the data were processed

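The authors hybridized Cy5-labelled cDNA of each sample to an Agilent mouse array and deposited scanner files with the background-subtracted, spatially detrended intensity of each spot (Agilent Feature Extraction 11.5.1.1). A deposited table of the series held the same intensity values, rounded and without normalization between arrays. The methods name GeneSpring for normalization and no test per gene. Probes were named by transcript accession through a RefSeq table of the assembly GRCm38.p6, which gave 33767 of 56605 probes a symbol.

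Control spots and spots flagged as outliers were left out. The 75th percentile of each array, an intensity of 1012 to 2138, was subtracted on the log2 scale, and spots of a probe were averaged. A probe was tested if at least 0.5 of its spots were well above background on all arrays of a group. Groups were compared with limma 3.58.1 (lmFit and eBayes) in R 4.3.3, with Benjamini-Hochberg adjustment, and the code was tested on simulated data. The number of arrays limits the precision. Promoter letters were read from a RefSeq table.

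The genes, lists, tests and alternatives were chosen with earlier results of these data known. All genes of the core were named, and genes of the lists by p and overlap as stated above. Same-numbered arrays deviated together with correlations of 0.139, 0.127 and 0.0187, and the numbers were not used to pair samples. Single results for some genes of the lists are not reported here.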

Additional observations from a re-analysis of the deposited data

How the results depend on the processing

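In every one of the 20 alternatives 0 of the 9 genes with a probe on all arrays passed the adjusted threshold in limma. The difference of Tgfb1 ran from -0.58 to -0.38 (adjusted p 0.0652 to 1) and was under an unadjusted p of 0.05 in 14 of the 20. That of Tgfb2 ran from 0.43 to 1.22 (adjusted p 0.0851 to 0.735) and was under it in 13. The number of the 9 genes under an unadjusted p of 0.05, otherwise 2 or 3, was 1 in the table without normalization, 1 without a filter on dim probes, 0 with the leukocyte covariate, 0 without replicate 3 of both groups, and 0 to 2 when each array was left out. Over all probes, 20 passed the adjusted threshold. The count was 12 under quantile normalization, 11 under a median shift, which moved the median of all probes to -0.14, 456 without normalization, 11 with normexp, 9 without the filter, 4 with only probes well above background on all arrays, 1105 with array weights, 140 with slide column as a random block, 11 with the leukocyte covariate, and 3 without replicate 3 of both groups. It was 0 to 25 when each array was left out. The 0 arose without mPGC-1α replicate 3, where 3354 probes were under an unadjusted p of 0.05, while leaving out mPGC-1α replicate 2 gave 1 and leaving out PGC-1αf/f replicate 2 gave 2. With the replicate block, 0 probes passed and 4681 were under an unadjusted p of 0.05, and no call of the 9 genes changed. Pathway genes past the threshold numbered 5 without normalization, 0 with the replicate block, 6 with array weights, 2 with slide column as a random block, and 0 to 1 when each array was left out. At its brightest probe Cdkn1a differed by 2.65 to 3.23 in 19 alternatives and passed in 15. The mean over its probes is left out here, because the dimmer one passed the filter through the group in which it was high. It did not pass with the replicate block (3.00) or without PGC-1αf/f replicate 2 (2.91), mPGC-1α replicate 2 (2.94) or mPGC-1α replicate 3 (3.00). Signs turned for Ski under quantile normalization (-0.0727), a median shift (-0.0945), normexp (-0.0459) and array weights (-0.0707), and from -0.0369 to 0.116 when each array was left out. They also turned for Thbs1 with outlier spots kept (-0.20) and for Smad4 as a mean over its probes with values on all arrays (0.0376). The cause was not tested. The dim Smad4 probes, not well above background on every array, limit what can be said from them.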
